A study of Mus musculus with 48 samples.

Results

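A set of 10 heart genes was followed through the neuronal differentiation of mouse embryonic stem cells, among 36935 genes kept from the deposited count table. Of these, 5 encode parts of the contractile apparatus of heart muscle (Myl7, Myl4, Tnnt2, Myh6 and Actc1) and 5 encode transcription factors of the developing heart (Nkx2-5, Tbx1, Tbx5, Tbx20 and Hand2). They were chosen by gene symbol with measured levels in view, among them a high Myl7 level in the KAT6B knockout at day 6. The comparison of that group with E14 is therefore described here with no test. Its comparisons with the other knockouts at day 6, and the change of its difference from E14 by day 15, were not tested either. Comparisons of the other groups were tested except where stated.

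The libraries came from the E14 control line and from E14 lines in which the labels give KAT6A, KAT6B or both as knocked out, the last called the KAT6A/B double knockout. KAT6A and KAT6B are related histone acetyltransferases. Cells were taken as undifferentiated stem cells in serum with LIF (day 0), as embryoid bodies 2 days after LIF withdrawal (day 2), as embryoid bodies exposed to 10 µM all-trans retinoic acid from day 4 (day 6), and as neural cultures plated on day 8 (day 15). All 4 genotypes went through the same protocol, and each of the 16 groups holds 3 libraries from 3 independent differentiation experiments. How the lines were edited, and whether each is a single clone, is not given in the sources used here, so a difference of a line from E14 cannot be told apart from a difference between clones.

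Sarcomeres contract when myosin heads, each a heavy chain such as that of Myh6 with light chains such as those of Myl7 and Myl4, pull on thin filaments of cardiac actin (Actc1) whose access is set by the troponin complex (Tnnt2). During heart formation Nkx2-5, Tbx5, Tbx20 and Hand2 act with GATA and MEF2 factors in mesoderm that will form heart chambers, and Tbx1 acts in the pharyngeal mesoderm of the second heart field. Tbx1 is known as a gene whose expression depends on KAT6A in the mouse embryo. Retinoic acid patterns this mesoderm along the body axis.

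Total counts ran from 22.5 to 72.2 M per library. Levels are CPM, counts divided by library size in M after scaling by trimmed means (TMM) over all 48 libraries, which compare a gene between groups but not genes with each other. Differences are log2 values ± SE, and a gene is called at a Benjamini-Hochberg adjusted p under 0.05 from edgeR over all genes tested. In the lines named for its loss, mean Kat6a per day was 67.4 to 117 CPM, beside 135 to 193 CPM in E14. Mean Kat6b was 82.0 to 210 CPM in the lines named for its loss and 96.2 to 319 CPM in E14, so whole-gene counts of both targets remained. Among the day 6 libraries, replicate 3 of E14, of the KAT6A knockout and of the double knockout stood apart in markers of blood and endothelium: the 7 blood markers summed to 81.6, 57.3 and 42.6 CPM there and to 2.46 to 7.91 CPM in the other 6 libraries of these lines. Results at day 6 are therefore given by library.

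Of 30 other heart muscle genes on the list, 9 to 15 had a mean under 1 CPM in each group. Among them were 4 markers of working muscle, named after their values were seen, that stayed near 0 throughout. Sln, a regulator of the calcium pump of atrial muscle, had no count in any library, and the highest group mean of Pln, its ventricular counterpart, was 0.0665 CPM. The sarcomere-linked genes Smpx and Tcap reached group means of at most 0.120 and 0.194 CPM. In each group the rest of the 30 genes had means of 1 CPM or more, so these 4 do not stand for the list. In bulk RNA, fewer cells of a type and less RNA per cell cannot be told apart.

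**Figure D1:**
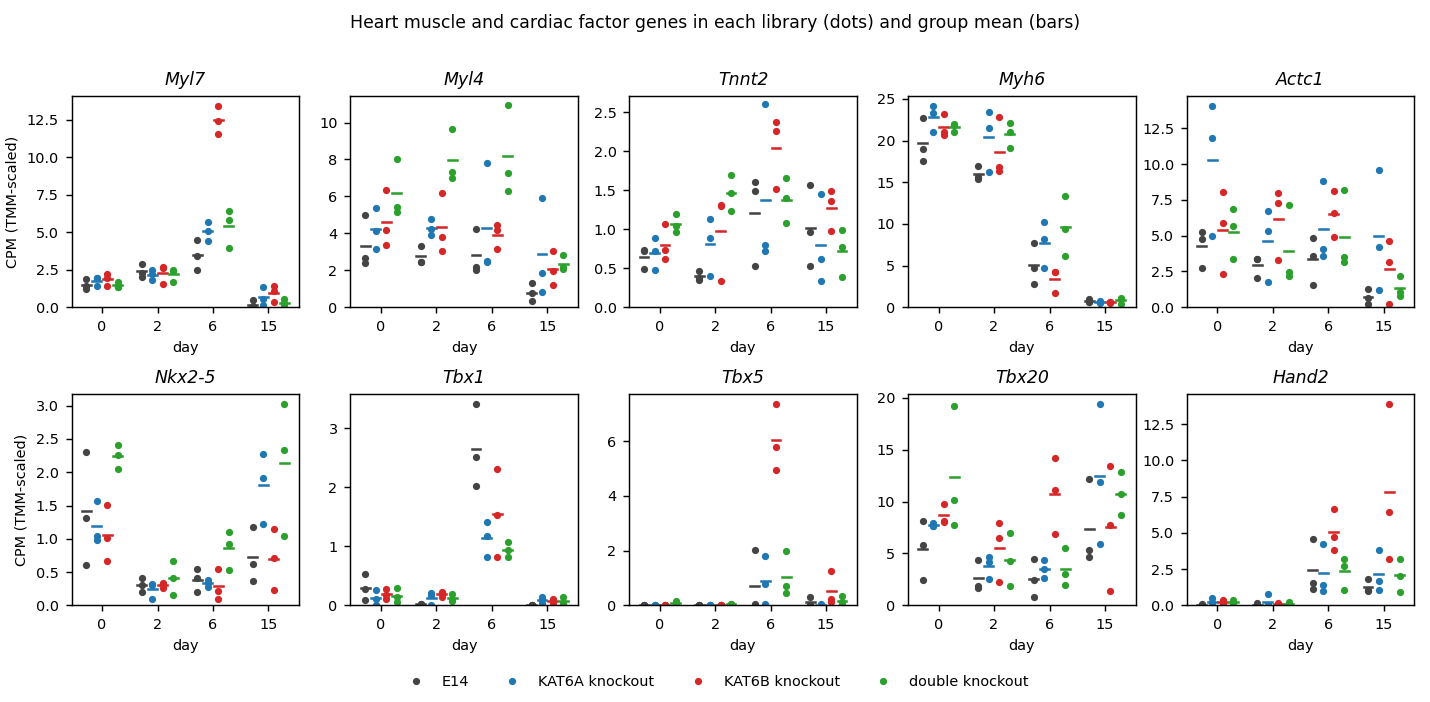
CPM (linear axis, scaled by TMM over all libraries) of the 10 genes by day and genotype, 1 dot per library and a bar at each group mean. Myh6 is near 20 CPM in all lines at days 0 and 2 and at or under 1.07 CPM in every library at day 15, while Myl7 and Tbx5 peak in the 3 KAT6B knockout libraries at day 6.

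The first question was how the set moves along the differentiation of the E14 control line. The contractile genes were at their lowest at day 15, apart from Tnnt2, while Hand2 and Tbx1 appeared at day 6. Of the 9 genes tested, 2 were called at day 2 against day 0, where 21.6% of all tested genes were called. At day 6 against day 0 there were 4 (background 50.0%), at day 15 against day 0 there were 6 (69.7%), at day 6 against day 2 there were 4 (41.7%) and at day 15 against day 6 there were 6 (54.6%). The number called was thus close to what genes in general gave. Tbx5 had too few counts to be tested in this series of comparisons.

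Myl7 (ENSMUSG00000020469, chromosome 11, 5846637 to 5848782, minus strand, GRCm39 as are all gene positions here) encodes the myosin regulatory light chain of the atria. In E14 it was at 1.22, 1.41 and 1.85 CPM at day 0, 2.02, 2.31 and 2.90 CPM at day 2, 2.46, 4.51 and 3.44 CPM at day 6, and 0.0481, 0.454 and 0.0347 CPM at day 15. The day 15 libraries lay below all earlier ones. Myl7 fell from day 6 to day 15 (-4.18 ± 0.65, adjusted p = 9.75e-05), while its level at day 6 against day 0 gave 1.22 ± 0.56 (adjusted p = 0.0819) although these groups did not overlap.

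Myh6 (ENSMUSG00000040752, chromosome 14, 55179378 to 55204384, minus strand) encodes the alpha myosin heavy chain of atrial and adult mouse heart. It was at 22.7, 17.6 and 18.9 CPM in E14 stem cells, 16.96, 15.4 and 15.6 CPM at day 2, 4.76, 7.69 and 2.83 CPM at day 6, and 0.625, 0.942 and 0.607 CPM at day 15. The level in stem cells was thus the highest of the course, and the groups at days 0, 6 and 15 did not overlap. Myh6 fell by day 6 (-1.94 ± 0.30, adjusted p = 1.55e-04) and further by day 15 (-4.72 ± 0.35 against day 0, adjusted p = 5.71e-08). Its near-identical neighbour Myh7 could share reads with it, which makes the split between the pair uncertain. The same course held in the knockout lines, which had group means of 21.6 to 22.9 CPM at day 0 and 0.590 to 0.825 CPM at day 15.

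Actc1 (ENSMUSG00000068614, chromosome 2, 113877763 to 113884029, minus strand), the cardiac alpha actin gene and a close copy of Acta1 of skeletal muscle, was at 2.73, 4.76 and 5.26 CPM in E14 at day 0 and 0.649, 1.26 and 0.191 CPM at day 15. It fell over that time (-2.56 ± 0.57, adjusted p = 0.00114), with no overlap. Myl4 (ENSMUSG00000061086, chromosome 11, 104441489 to 104486579, plus strand), the atrial and embryonic essential light chain, was at 4.97, 2.68 and 2.37 CPM at day 0 and 0.313, 1.30 and 0.763 CPM at day 15, a fall of 2.02 ± 0.49 on the log2 scale (adjusted p = 0.00204). Tnnt2 (ENSMUSG00000026414, chromosome 1, 135764092 to 135779998, plus strand), the cardiac troponin that ties the complex to tropomyosin, was not called over that span. It was at 0.351, 0.468 and 0.371 CPM at day 2 and 0.525, 1.49 and 1.61 CPM at day 6 (1.65 ± 0.51, adjusted p = 0.0184). That call did not survive dropping E14 day 2 replicate 1 (0.0614), day 2 replicate 3 (0.0604) or day 6 replicate 3 (0.0738).

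Among the factors, Hand2 (ENSMUSG00000038193, chromosome 8, 57774018 to 57777668, plus strand), a basic helix-loop-helix factor of the right ventricle, pharyngeal arches and sympathetic neurons, appeared during the retinoic acid step. E14 had 0, 3 and 1 counts of it at day 0, and 1.15, 1.57 and 4.57 CPM at day 6, where all 3 libraries were above those of day 0. It rose by 5.71 ± 0.98 (adjusted p = 3.14e-04) and was still at 0.962, 1.06 and 1.80 CPM at day 15. The antisense gene Hand2os1 overlaps Hand2, with 403 counts over all libraries beside 3631 for Hand2, and the strand setting of the authors' counting is not given in the sources used here.

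In the E14 course Tbx1 (ENSMUSG00000009097, chromosome 16, 18399729 to 18409421, minus strand) was highest at day 6. It had 11, 3 and 9 counts at day 0 and 0, 1 and 1 counts at day 2, then 3.42, 2.02 and 2.52 CPM at day 6, and no count in any of the 3 libraries at day 15. Its pooled level was 15.6-fold lower at day 2 than at day 0 (95% exact interval 3.84 to 136, counting error only) and 153-fold higher at day 6 than at day 2 (42.1 to 1269.8). Against a floor of 3 counts over the group, it was at least 136-fold lower at day 15 than at day 6 (adjusted p = 7.27e-06) and at least 13.8-fold lower than at day 0 (adjusted p = 3.49e-04). Its changes at day 2 (adjusted p = 0.0133) and at day 6 against day 0 (3.23 ± 0.61, adjusted p = 9.23e-04) were called as well, the former not without E14 day 2 replicate 1 (adjusted p = 0.0513).

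Nkx2-5 (ENSMUSG00000015579, chromosome 17, 27057638 to 27063983, minus strand), a homeodomain factor of the earliest heart field, was at 1.32, 0.606 and 2.31 CPM in E14 stem cells and 0.409, 0.303 and 0.206 CPM at day 2. It fell by 2.23 ± 0.62 (adjusted p = 0.0217), a call that did not survive dropping day 0 replicate 3 (0.124) or any 1 day 2 library (0.0511 to 0.0768). Tbx20 (ENSMUSG00000031965, chromosome 9, 24629434 to 24685599, minus strand), a T-box factor of the chamber muscle and valves that is also made in hindbrain motor neurons, was at 0.788, 2.43 and 4.42 CPM at day 6 and 5.36, 12.1 and 4.66 CPM at day 15. It rose by 1.54 ± 0.59 (adjusted p = 0.039), a call that did not survive dropping day 6 replicate 1 (0.126) or 2 (0.0992) or day 15 replicate 2 (0.205). Tbx5 (ENSMUSG00000018263, chromosome 5, 119970733 to 120023284, plus strand), a factor of the atria, left ventricle and forelimb, had no count in E14 at day 0 and 2, 1 and 109 counts at day 6, so that replicate 3 held nearly all of it.

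The wider lists of heart genes did not move as 1 group in E14. At day 6, 11 of 20 other heart factors tested rose and 4 fell (median 1.45, beside 0.05 for all genes, of which 25.8% rose and 24.2% fell), among them Gata5 (6.31 ± 0.92) and Tbx18, a factor of the sinus region and epicardium (5.04 ± 0.73). Of 19 tested genes of the second heart field and pharynx, 10 rose and 4 fell (median 1.76), with Hoxb1, a retinoic acid target, up by 6.09 ± 0.50. Other heart muscle genes split, with 6 risers and 5 fallers of 23 tested (median -0.14): the light chain gene Myl3 rose by 3.73 ± 0.57 and Ttn, which encodes titin, was among those that fell. At day 15, 9 of these 23 rose and 5 fell, beside 36.5% and 33.2% of all genes, and the risers included Cacna1c (5.47 ± 0.36) and Hcn4 (5.22 ± 0.40), channels that neurons use too. Of 14 tested T-box genes, 4 rose and 5 fell at day 6, among the risers Tbx2 of the heart's non-chamber muscle (3.70 ± 0.48).

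Sequence upstream of the genes was available from RefSeq (GRCm38.p6, a different build from the counts) for 9 of the 10, all but Tbx5, as the 250 bases before each annotated gene start. The windows below are those of 3 genes with higher levels in the KAT6B knockout at day 6, Myl7 (chr11:5898783-5899032, minus strand), Actc1 (chr2:114052876-114053125, minus strand) and Tbx20 (chr9:24774304-24774553, minus strand), and that of Myh6 (chr14:54966608-54966857, minus strand), which was not higher there. Each is written 5′ to 3′ on the gene's strand, and capitals mark matches to the CArG element bound by serum response factor or to AAGTG, a core of NKX2-5 sites.
Myl7: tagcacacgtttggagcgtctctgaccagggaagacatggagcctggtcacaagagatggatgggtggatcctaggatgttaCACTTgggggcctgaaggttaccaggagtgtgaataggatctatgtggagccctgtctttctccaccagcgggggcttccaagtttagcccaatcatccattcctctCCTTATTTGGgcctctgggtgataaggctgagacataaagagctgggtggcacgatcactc
Actc1: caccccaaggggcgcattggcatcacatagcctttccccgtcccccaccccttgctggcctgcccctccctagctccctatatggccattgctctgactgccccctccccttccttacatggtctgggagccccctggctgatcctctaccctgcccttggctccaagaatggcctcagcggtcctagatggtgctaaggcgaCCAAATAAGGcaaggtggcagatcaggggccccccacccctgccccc
Tbx20: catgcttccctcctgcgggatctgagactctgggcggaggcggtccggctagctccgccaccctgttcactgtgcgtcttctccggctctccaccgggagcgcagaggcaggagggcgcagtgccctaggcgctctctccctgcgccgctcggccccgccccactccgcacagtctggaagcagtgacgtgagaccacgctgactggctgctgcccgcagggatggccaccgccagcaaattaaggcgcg
Myh6: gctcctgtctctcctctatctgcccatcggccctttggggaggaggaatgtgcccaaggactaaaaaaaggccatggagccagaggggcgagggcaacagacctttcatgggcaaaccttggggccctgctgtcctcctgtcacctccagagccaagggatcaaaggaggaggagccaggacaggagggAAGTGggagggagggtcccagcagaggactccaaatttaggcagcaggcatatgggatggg

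A CArG element was found in the windows of Myl7, at -61 to -52 from the gene start, and of Actc1, at -47 to -38, and in 1.47% of 32851 windows of this length. The letters AAGTG, on either strand, were in the windows of Myl7, Myl4, Myh6 and Hand2 and in 40.7% of all windows. The letters AGATAA, bound by GATA factors, were in 1 Tnnt2 window and in that of Hand2 (9.99% of all windows), and CANNTG, the E-box of helix-loop-helix factors, in those of Hand2, Myh6, Myl7, Nkx2-5, Tnnt2 and 1 of the pair for Tbx1 (66.2% of all windows). No window of the set held AGGTGTGA, a T-box motif (1.12%), the MEF2 motif (3.20%), or AGGTCA, a half-site of retinoic acid receptors (14.02%). Both strands were searched, and in Myl7 and Hand2 the AAGTG match lies within an E-box match. Contractile genes other than Myl4 had 0 to 5 CG dinucleotides in the window, around or under the median of 6 over all windows, while Myl4 had 23 and the 4 factors with a window had 8 to 22.

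The comparison that guided the choice of genes, KAT6B knockout against E14 at day 6, gave higher mean levels for 7 of the 10 genes and lower ones for Myh6, Nkx2-5 and Tbx1. Of all 20533 genes tested, 0.0292% were called there and 17.4% had groups that did not overlap. Among the 10 genes 4 had such groups, Myl7, Actc1, Tbx20 and Tbx5, each higher in the knockout, and nothing is read from this count because the genes were chosen with it in view.

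At day 6 Myl7 was at 13.4, 11.6 and 12.5 CPM in the KAT6B knockout and 2.46, 4.51 and 3.44 CPM in E14, a ratio of means of 3.60. All 3 libraries were above every other library of the series. The KAT6A knockout had 4.42, 5.66 and 5.12 CPM and the double knockout 5.84, 3.92 and 6.42 CPM, so the group means of these lines, 5.06 and 5.39 CPM, were the next highest for this gene.

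Actc1 was at 6.60, 8.12 and 4.94 CPM in the KAT6B knockout and 3.58, 1.57 and 4.87 CPM in E14, with the lowest knockout library just above the highest of E14. Tnnt2 was at 1.51, 2.37 and 2.25 CPM against 0.525, 1.49 and 1.61 CPM, and Myl4 at 4.17, 4.47 and 3.18 CPM against 2.17, 4.24 and 2.03 CPM. Both overlapped with E14. Myh6 was at 1.71, 4.26 and 4.24 CPM against 4.76, 7.69 and 2.83 CPM, so the contractile genes did not all stand on the same side of E14.

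Tbx20 was at 6.91, 11.1 and 14.2 CPM in the KAT6B knockout and 0.788, 2.43 and 4.42 CPM in E14. Tbx5 was at 7.37, 4.95 and 5.78 CPM in the knockout and 0.0657, 0.0241 and 2.02 CPM in E14. The ratio of means for Tbx5 was 8.59, and 134 without E14 replicate 3, because that library held 109 of the 112 E14 counts. Hand2 was at 3.80, 6.63 and 4.73 CPM against 1.15, 1.57 and 4.57 CPM and overlapped with E14 only through replicate 3. For Tbx5 and Hand2 the replicate 3 library was the highest of E14, of the KAT6A knockout and of the double knockout alike, as it was for Actc1 and Tbx20. Within replicate 3 the KAT6B knockout and E14 stood at 5.78 and 2.02 CPM for Tbx5, 4.73 and 4.57 CPM for Hand2, and 4.94 and 4.87 CPM for Actc1, and at 14.2 and 4.42 CPM for Tbx20 and 12.5 and 3.44 CPM for Myl7.

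**Figure D2:**
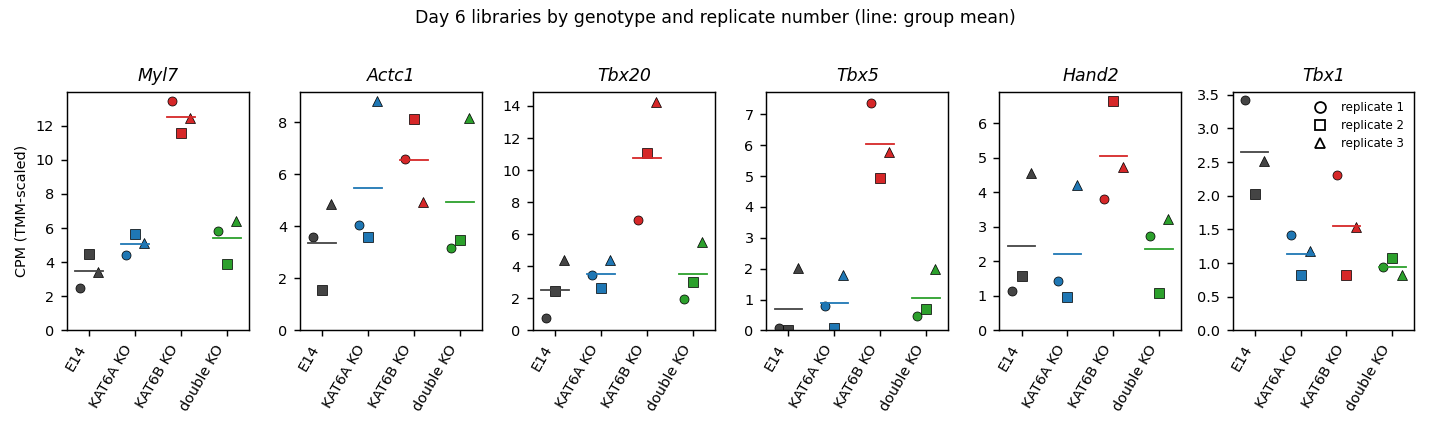
CPM (linear axis) of 6 of the genes in the 12 day 6 libraries, by genotype on the horizontal axis, with a symbol for each replicate number and a line at each group mean. Myl7 is at 11.6 CPM or above in the KAT6B knockout and at 6.42 CPM or below elsewhere, while the triangle of replicate 3 is the top Tbx5 library in the other 3 lines.

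Markers of some other cell types differed from E14 at day 6 too, while others overlapped. The endoderm, smooth muscle, skeletal muscle, neural progenitor and pluripotency lists overlapped with E14. Endoderm markers summed to 372 to 655 CPM in the KAT6B knockout and 332 to 650 CPM in E14, and pluripotency markers to 117 to 260 CPM and 144 to 347 CPM. The 7 blood markers summed to 74.2 to 124 CPM in the KAT6B knockout at day 6 and 2.46 to 81.6 CPM in E14, and the 8 endothelial markers to 340 to 472 CPM and 94.1 to 374 CPM, with E14 replicate 3 the highest E14 library for both and both lists overlapping through it. Without overlap, the 7 trophoblast markers summed to 312 to 443 CPM in the KAT6B knockout and 202 to 228 CPM in E14, the 8 fibroblast and mesenchyme markers to 514 to 599 CPM and 229 to 510 CPM, and the 8 neural crest and sympathetic markers to 9.02 to 18.0 CPM and 21.2 to 30.3 CPM. Of the 7 blood markers 4 had a mean under 1 CPM in the KAT6B knockout, and 4 in E14. The blood sum in the knockout thus came mostly from the embryonic globin genes Hba-x, Hbb-bh1 and Hbb-y. These had 667 to 2623 counts each in the KAT6B knockout libraries, while Ptprc of white blood cells had none. Kdr, the receptor of vascular endothelial growth factor and a mark of early blood, vessel and heart mesoderm, was at 123, 153 and 177 CPM against 25.6, 17.3 and 138 CPM. Among the other heart factors, 15 of 20 tested were above 0 on the log2 scale (median 0.55, beside -0.02 for all genes). The most abundant were Gata4, at 147, 124 and 109 CPM against 59.6, 48.9 and 63.5 CPM, and Gata6, at 116, 118 and 141 CPM against 66.9, 60.1 and 79.5 CPM, neither group overlapping with E14. Gata6 is also on the endoderm list, whose sum overlapped with E14. Tcf21, a factor of epicardium and pharyngeal muscle named after its values were seen, was at 16.6, 11.7 and 5.57 CPM against 0.558, 0.145 and 4.31 CPM.

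The remaining heart muscle genes were split evenly about 0. Of 24 tested, 12 were above it (median 0.03), their summed level was 619 to 654 CPM in the KAT6B knockout and 609 to 705 CPM in E14, and 2 of the 30 on the list had no count in either group's libraries. Most of that sum came from Atp2a2 and Tpm1, which many cells express, at 307 ± 15.6 and 233 ± 30.0 CPM in the knockout (SD, n = 3). The 7 neuron markers summed to 26.3 to 30.7 CPM in the KAT6B knockout and 41.6 to 49.1 CPM in E14. The part of these other cell types in the levels of the 10 genes was not tested.

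**Figure D3:**
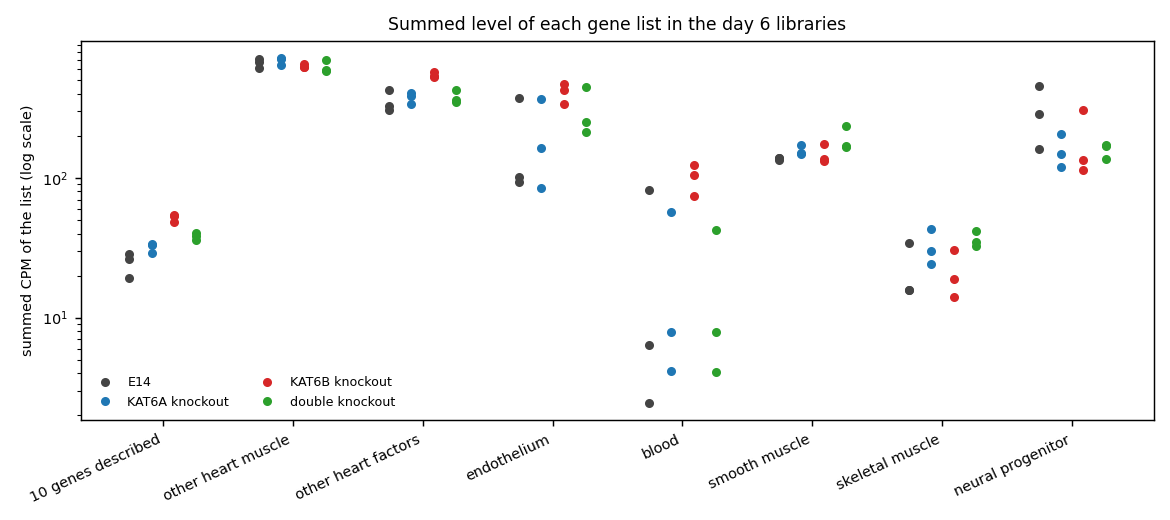
Summed CPM (log axis) of 8 gene lists in the 12 day 6 libraries, 1 dot per library and 1 colour per genotype. The blood markers lie at 74.2 to 124 CPM in the KAT6B knockout and under 10 CPM in 6 of the other 9 libraries, while the other heart muscle genes lie between 586 and 723 CPM in all 12.

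Tbx1 is the gene of the set with a known link to KAT6A, and its mean was highest at day 6 in every line. At that day it was lower in all 3 knockout lines than in E14. E14 had 3.42, 2.02 and 2.52 CPM. The KAT6A knockout had 1.42, 0.817 and 1.18 CPM and the double knockout 0.946, 1.07 and 0.821 CPM, so that neither line's libraries overlapped with E14. The KAT6B knockout had 2.31, 0.818 and 1.54 CPM, with replicate 1 inside the E14 range.

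The difference of the KAT6A knockout was -1.24 ± 0.38 (unadjusted p = 0.00598, adjusted p = 0.809), and that of the double knockout -1.53 ± 0.39 (unadjusted p = 0.0015, adjusted p = 0.238). Neither was called. DESeq2 called the double knockout (adjusted p = 0.0157), while the adjusted p over all alternatives ran from 0.0157 to 0.897 there and from 0.343 to 1 for the KAT6A knockout. The sign was negative in each of these fits. Of the 10 genes, Tbx1 was the only one whose KAT6A knockout and E14 libraries did not overlap at day 6 (11.6% of all genes), and Tbx1 and Myl4 were those of the double knockout (11.7%).

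At day 6, edgeR called 0 of 10 genes in the KAT6A knockout, where it called 0% of all genes, 1089 genes had an unadjusted p under 0.05 (1 of the 10) and DESeq2 called 2 genes (0 of the 10). In the double knockout edgeR called 0 of 10 (0.0682% of all genes). Of the 10, 3 had an unadjusted p under 0.05, beside 1667 of all 20533 genes. DESeq2 called 2, Tbx1 and Myl4, beside 243 over all genes. Of the factors that stood high in the KAT6B knockout, none separated from E14 in the double knockout. Tbx20 was at 1.98, 3.02 and 5.51 CPM there, Tbx5 at 0.462, 0.701 and 2.00 CPM and Hand2 at 2.75, 1.10 and 3.21 CPM, each overlapping with E14. Whether the KAT6B and the double knockout differ at day 6 was not tested, because the KAT6B libraries guided the choice of genes.

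Genes of the second heart field and pharynx, among which Tbx1 acts, gave 0 calls of 19 tested in the KAT6A knockout (median -0.17) and 0 in the double knockout (median -0.05) at day 6, by edgeR. None of 15 T-box genes tested was called in either line, with medians of 0.16 and 0.38.

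Myl4 was higher in the double knockout at day 2, and this was the 1 call among the 10 genes in the 11 tested comparisons with E14. The double knockout had 9.64, 7.31 and 6.99 CPM and E14 2.46, 3.33 and 2.47 CPM. Every double knockout library was above all 3 of E14, and the difference was 1.51 ± 0.27 (adjusted p = 0.0127). By edgeR 1 of 7 genes tested was called, beside 1.12% of all genes, and 3 of the 7, Myl4, Tnnt2 and Myh6, had groups that did not overlap, beside 21.9% of all genes. Over the alternatives the adjusted p ran from 5.42e-06 to 0.227, and the call was lost in a fit of all 48 libraries and in 5 of 6 fits that dropped a library (0.0507 to 0.105), all but that without double knockout replicate 3.

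The single knockouts lay between these levels at day 2. Myl4 was at 3.90, 4.79 and 4.22 CPM in the KAT6A knockout, with no overlap with E14 (20.1% of all genes), and 3.04, 6.18 and 3.80 CPM in the KAT6B knockout. The differences from E14, 0.64 ± 0.27 in the KAT6A knockout and 0.65 ± 0.27 in the KAT6B knockout, were not called (adjusted p = 0.457 and 1). The double knockout differed from the KAT6A knockout by 0.87 ± 0.26 and from the KAT6B knockout by 0.86 ± 0.26 with no overlap, but not past the threshold (adjusted p = 0.417 and 0.288).

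Myl4 stood higher in the double knockout at the other days too. It was at 5.16, 8.02 and 5.42 CPM at day 0 (0.87 ± 0.33 against E14, adjusted p = 0.18), 7.27, 10.9 and 6.30 CPM at day 6 (1.49 ± 0.43, adjusted p = 0.305, 0.032 by DESeq2) and 2.82, 2.09 and 2.19 CPM at day 15 (1.55 ± 0.69, adjusted p = 0.2). At all 4 days the 3 libraries were above the 3 of E14, at day 0 by a small margin (5.16 against 4.97 CPM). Groups that did not overlap, in either direction, made up 18.1%, 21.9%, 11.7% and 42.2% of all genes at days 0, 2, 6 and 15. The double knockout shares these E14 libraries with the other lines.

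Tnnt2 accompanied it at day 2, at 1.47, 1.70 and 1.23 CPM in the double knockout and 0.351, 0.468 and 0.371 CPM in E14. The difference of 1.85 ± 0.49 was not called (adjusted p = 0.0902) but passed with no filter on low counts, with DESeq2 and with only the 2 groups in the fit, over a range of 0.0146 to 0.316. Of 22 other heart muscle genes tested 1 rose, Ryr2, the calcium release channel of heart and brain (0.77 ± 0.17, adjusted p = 0.0448), and of 19 other heart factors 1 rose, Hand1, a factor of the left ventricle and of trophoblast (2.60 ± 0.42, adjusted p = 0.0108). The list medians were 0.50 and 0.15, beside 0.01 for all genes. The Ryr2 call was lost whichever of the 6 libraries was dropped (adjusted p up to 0.25), and that of Hand1 without E14 replicate 1 or 2 (up to 0.203 over all alternatives). Markers of other cells rose there, among them Myh3, the embryonic skeletal myosin (1.07 ± 0.15), Cdh5 of endothelium (1.81 ± 0.39) and Plac1 of trophoblast (3.07 ± 0.56), calls that were lost in 1, 5 and 4 of the 6 fits that dropped a library. The 13 skeletal muscle markers summed to 65.6 to 90.7 CPM in the double knockout and 29.4 to 34.5 CPM in E14, and their part in the Myl4 level was not tested.

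**Figure D4:**
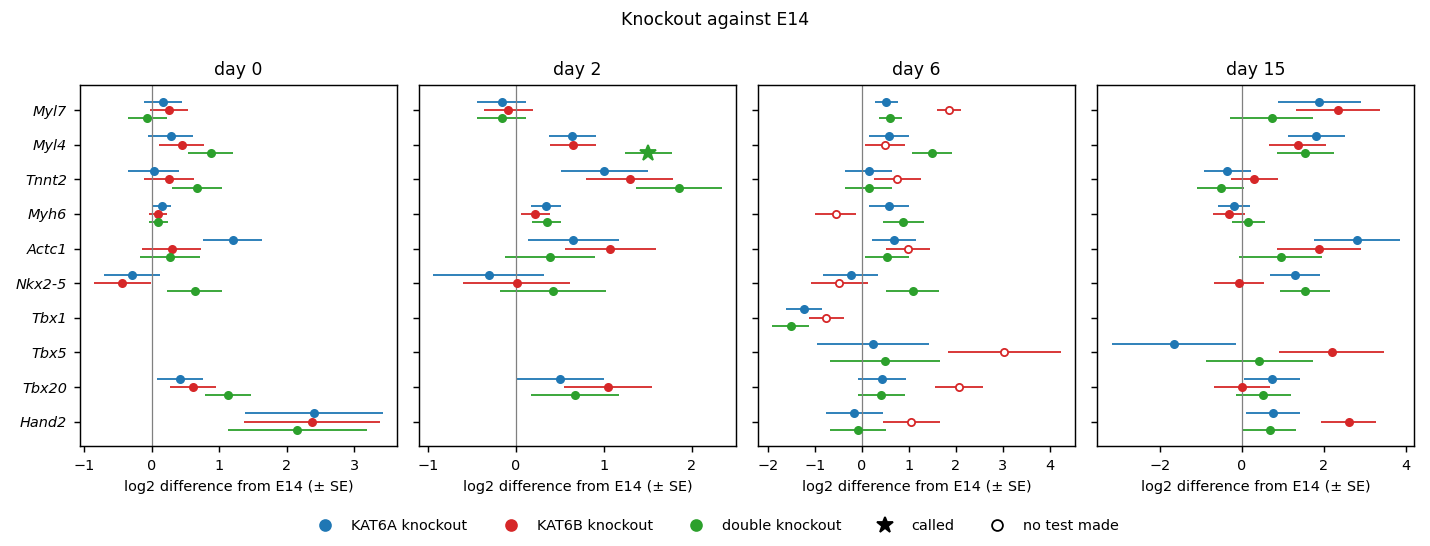
log2 difference from E14 (± SE) of each gene in the 3 knockout lines at each day, with a star for a call and an open circle for the comparison made with no test. Genes with 3 or fewer counts in E14 or too few counts to test are left out, and the 1 star is Myl4 in the double knockout at day 2 (1.51).

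In stem cells none of the knockout lines had a called gene of the set. By edgeR 0 of 8 tested genes were called in the KAT6A knockout (0% of all genes), 0 in the KAT6B knockout (0.0106%) and 0 in the double knockout (2.09%), with 2, 1 and 2 at an unadjusted p under 0.05 and 0, 0 and 1 called by DESeq2. Over all genes edgeR called none in the KAT6A knockout, where 899 had an unadjusted p under 0.05 and DESeq2 called 5. In the KAT6B and double knockouts 2239 and 3441 of 18935 genes had an unadjusted p under 0.05, and DESeq2 called 195 and 1086. The 1 gene of the set called by DESeq2 was Tbx20 in the double knockout, at 7.75, 10.2 and 19.2 CPM against 2.48, 5.86 and 8.09 CPM (1.12 ± 0.34, adjusted p = 0.103 by edgeR and 0.0173 by DESeq2, up to 0.441 over the alternatives). Actc1 was at 11.8, 14.1 and 4.99 CPM in the KAT6A knockout against 2.73, 4.76 and 5.26 CPM, with replicate 3 inside the E14 range (1.20 ± 0.44, adjusted p = 0.93). In the double knockout 2 of 18 other heart factors rose, Hand1 (1.92 ± 0.38) and Myocd, a partner of serum response factor (1.75 ± 0.42), and 1 of 24 other heart muscle genes, Ryr2 (0.88 ± 0.21). Of 15 pharyngeal genes 2 fell, Msc (-2.06 ± 0.43) and Fgf8 (-1.95 ± 0.44). Each of these 5 calls was lost in 3 or 4 of the 6 fits that dropped a library and with only the 2 groups compared. The highest adjusted p over the alternatives was 0.154 for Ryr2, 0.194 for Myocd, 0.159 for Msc, 0.291 for Hand1 and 0.367 for Fgf8.

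At day 2 edgeR called 0 of 7 tested genes in the KAT6A knockout (0.0102% of all genes) and 0 of 7 in the KAT6B knockout. DESeq2 called none of the 7 in either. In the KAT6A knockout 2011 of 19594 genes had an unadjusted p under 0.05 (1 of the 7) and DESeq2 called 30. In the KAT6B knockout edgeR called 0% of all genes, with 796 at an unadjusted p under 0.05 (2 of the 7) and 23 called by DESeq2. Tbx1 was too low to test, and E14 held 2 counts of it over 3 libraries. The 3 KAT6B libraries held 5, 10 and 9 counts and the 3 double knockout libraries 3, 5 and 10, all above E14, while the KAT6A libraries held 6, 8 and 0. The pooled level was 11.8-fold (95% exact interval 2.92 to 103), 7.64-fold (1.83 to 67.9) and 7.42-fold (1.71 to 67.3) higher than in E14 in the KAT6B, double and KAT6A knockouts.

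In the day 15 cultures Myl7, Myl4 and Actc1 had higher means in all 3 knockout lines than in E14, with a wide spread. The same held for the means of Tbx20, Hand2 and Tbx1. Means of Tnnt2, Myh6 and the rest of the set were above E14 in some lines and below it in others. edgeR called 0 of 9 tested genes in the KAT6A knockout (0% of all genes), 0 in the KAT6B knockout (0.0742%) and 0 in the double knockout (3.18%), with 2 of the 9 at an unadjusted p under 0.05 in each. DESeq2 called 0, 1 and 0. Over all 20225 genes, 2304, 4045 and 4974 had an unadjusted p under 0.05 in the KAT6A, KAT6B and double knockouts. DESeq2 called 280, 1716 and 2591 over all genes in the same order. With all 48 libraries in 1 fit, 3 genes of the set were called in each line. That count is not set beside the share of all genes called in that fit, so nothing is read from it.

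Markers of some other cells differed from E14 at day 15 too. The 7 neuron markers summed to 1357 to 2414 CPM in E14, and to 331 to 1289 CPM in the KAT6A knockout, 61.9 to 874 CPM in the KAT6B knockout and 134 to 839 CPM in the double knockout, all below E14. The 8 fibroblast and mesenchyme markers summed to 1700 to 4282 CPM in E14, 2199 to 6729 CPM in the KAT6A knockout and 7735 to 8885 CPM in the double knockout. In the KAT6B knockout they stood at 18245, 5635 and 4691 CPM in replicates 1 to 3, the same order as Hand2. The 8 smooth muscle markers summed to 440 to 849 CPM in E14, above that range in the KAT6A (1237 to 1972 CPM) and KAT6B knockouts (909 to 1154 CPM) and across it in the double knockout (423 to 1944 CPM). Their part in the levels of the 10 genes, and in the list calls at this day, was not tested.

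At day 15 Hand2 was at 13.9, 6.44 and 3.20 CPM in the KAT6B knockout and 0.962, 1.06 and 1.80 CPM in E14, with no overlap, which 29.3% of all genes showed and 1 of the 9 tested here. The difference was 2.61 ± 0.68 (adjusted p = 0.0942, from 0.003 by DESeq2 to 0.337 over the alternatives). The KAT6A knockout had 3.85, 1.05 and 1.71 CPM and the double knockout 2.04, 0.960 and 3.22 CPM. The overlapping antisense gene Hand2os1 was at 0.877 CPM on average in the KAT6B knockout and 0.173 CPM in E14. The double knockout against the KAT6B knockout gave -1.93 ± 0.66 for Hand2 (adjusted p = 1).

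Myl7 was at 0.576, 1.34 and 0.177 CPM in the KAT6A knockout, 1.404, 0.369 and 1.07 CPM in the KAT6B knockout and 0.522, 0.270 and 0.138 CPM in the double knockout at day 15, beside 0.0481, 0.454 and 0.0347 CPM in E14. The KAT6B difference of 2.35 ± 1.02 was not called (adjusted p = 0.236). Actc1 was at 9.63, 4.21 and 1.20 CPM, 0.225, 4.61 and 3.14 CPM, and 2.20, 1.10 and 0.811 CPM in the same order, beside 0.649, 1.26 and 0.191 CPM. Each line overlapped with E14 for both genes.

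Nkx2-5 was at 2.28, 1.92 and 1.22 CPM in the KAT6A knockout and 2.34, 3.03 and 1.05 CPM in the double knockout at day 15, and 0.225, 1.15 and 0.711 CPM in the KAT6B knockout, beside 0.361, 1.18 and 0.624 CPM in E14. Only the KAT6A knockout did not overlap with E14, which 26.5% of all genes showed there. Neither the KAT6A knockout (1.30 ± 0.61, adjusted p = 0.451) nor the double knockout (1.55 ± 0.61, adjusted p = 0.156) was called. Tbx1, with no count in E14, had 4, 2 and 8 counts in the KAT6A knockout, 1, 5 and 4 in the KAT6B knockout and 1, 3 and 7 in the double knockout. Against the floor of 3 counts these are levels at least 5.30-fold, 4.00-fold and 3.61-fold higher. Tbx5 was at 1.26, 0.138 and 0.225 CPM in the KAT6B knockout and 0.0240, 0 and 0.312 CPM in E14 (2.20 ± 1.29, adjusted p = 0.352). In the other lines it was at or under 0.336 CPM in every library.

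Of the heart lists at day 15, 1 of 24 other heart muscle genes fell in the double knockout, Nebl, a thin filament protein of heart that is also made in brain (-2.11 ± 0.38, adjusted p = 0.026), and 1 of 18 other heart factors rose, Tbx18 (1.44 ± 0.28, adjusted p = 0.03). Of 11 T-box genes tested 2 rose there, Tbx18 and Tbx15 (1.08 ± 0.24, adjusted p = 0.0419). The calls of Nebl, Tbx18 and Tbx15 were lost whichever library was dropped, and their adjusted p reached 0.112, 0.14 and 0.165. By edgeR none of the heart, pharyngeal and T-box lists had a call in the KAT6A knockout at any day or in the KAT6B knockout at days 0, 2 and 15.

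The differences between knockout lines and between days were tested directly. In the 10 comparisons of 1 knockout with another, edgeR called none of the genes, and 7 to 10 were tested in each. The shares of all genes called were 0.0528%, 0.0634% and 0.0264% at day 0 for double against KAT6A, double against KAT6B and KAT6B against KAT6A, and 0.0153%, 0.0102% and 0.00510% at day 2 in the same order. At day 6 double against KAT6A gave 0.00974%, and at day 15 the shares were 0.00494%, 0% and 0%. For the last pair of comparisons 945 and 782 genes had an unadjusted p under 0.05, and DESeq2 called 72 and 31 genes, none of them in the set. Some of the genes tested had groups that did not overlap, each uncalled. At day 0 these were Tnnt2 and Nkx2-5 of 8 for double against KAT6A (19.3% of all genes), Nkx2-5 for double against KAT6B (12.4%) and Tbx20 for KAT6B against KAT6A (15.0%), each higher in the line named first. At day 2 Myl4 and Tnnt2 of 7 were higher for double against KAT6A (11.6%) and Myl4 for double against KAT6B (12.9%), with none for KAT6B against KAT6A (12.4%). At day 6 there was Nkx2-5 of 10, higher for double against KAT6A (7.67%). At day 15 there were Nkx2-5, lower, and Tbx5, higher, of 9 for KAT6B against KAT6A (6.64%), and none for the other pairs (10.7% and 8.79%). Nkx2-5 in the double against the KAT6A knockout gave 0.93 ± 0.41 in stem cells (adjusted p = 0.628) and 1.32 ± 0.57 at day 6 (adjusted p = 1).

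A change of the knockout effect between days was called for none of the 8 to 10 genes tested. For day 15 against day 0 the share of all genes called was 0% in the KAT6A knockout (2011 genes at an unadjusted p under 0.05, 143 called by DESeq2), 0.0436% in the KAT6B knockout and 2.51% in the double knockout. For day 15 against day 6 it was 0.00952% in the KAT6A knockout and 0.914% in the double knockout. Tbx1 came closest, lower than E14 at day 6 and above an E14 group with no count at day 15, with an adjusted p of 0.0504 in the double knockout and 0.366 in the KAT6A knockout (0.0107 by DESeq2, up to 0.35 otherwise). The double knockout value was called with no filter on low counts (0.0415), with DESeq2 (0.00218) and with all 48 libraries in 1 fit (0.0314), and reached 0.0707 at most over the alternatives.

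Levels of the 10 genes over the 16 groups overlapped between most neighbours in rank. Between neighbouring groups there was no overlap for 1 of 15 pairs in Myl7, Tnnt2, Tbx1, Tbx5, Tbx20 and Hand2, for 2 in Myh6, and for none in Myl4, Actc1 and Nkx2-5. The highest group was the KAT6B knockout at day 6 for Myl7, Tnnt2 and Tbx5, the double knockout at day 6 for Myl4, the KAT6A knockout at day 0 for Myh6 and Actc1 and at day 15 for Tbx20, the double knockout at day 0 for Nkx2-5, E14 at day 6 for Tbx1, and the KAT6B knockout at day 15 for Hand2. Only for Myl7 and Tbx5 did the top group stand clear of the second. For both genes that group was the KAT6B knockout at day 6, which guided the choice of genes, so nothing is read from this.

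Within the set the patterns differed. Over the 48 libraries, which share days and lines, the Pearson r of log2 CPM between pairs ran from -0.73 for Myh6 and Hand2 to 0.71 for Tbx5 and Hand2, and Myl7 and Myl4 gave 0.63. Of 18073 other genes, those most like Myl7 were Mapk13 (r = 0.90), Dact2 (0.88) and Espn (0.88), and those most like Myl4 were H2-DMb1 (0.82), Wdfy4 (0.81) and Aldh3b2 (0.81). For Tnnt2 the closest were Gm37082 (0.61), Pik3r6 and Greb1l (both 0.58). For Myh6 they were Smim40, Bspry and Pla2g1b (all 0.98), and for Actc1 Mis12 (0.81), 1700017B05Rik and Bend4 (both 0.75).

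For the factors, Nkx2-5 was most like Itga7 (0.83), Bcar1 (0.82) and Gas2l1 (0.80), and Tbx20 most like Aspa (0.78), Mme (0.77) and Gm28635 (0.76). Tbx1 was most like Hoxb1 (0.88), Dgkz and Foxe3 (both 0.87). Tbx5 was most like Fendrr (0.90), a noncoding RNA of lateral mesoderm, Kdr (0.89) and Lyve1 (0.89), a receptor of lymphatic and yolk sac endothelium. Hand2 was most like Peg3 (0.94), Rhoj (0.92) and Nrp1 (0.92), the last 2 known from endothelium. These are descriptions over libraries that share days, lines and depth.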

How the data were processed

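RNA of 48 libraries was sequenced from ribosome-depleted, strand-specific libraries, per the labels' protocols. The authors deposited raw counts per gene. HISAT2 and GRCm39 are named in the submitters' processing notes, while the sources used here do not name the counting tool or its strand setting. Of 36983 rows, 48 with a repeated identifier were left out, and 4652 genes had no count. Total counts of 22.5 to 72.2 M make 1 count worth 0.0444 to 0.0138 CPM, and intervals and floors cover counting error only.

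Counts were tested with edgeR 4.0.16 (quasi-likelihood F test, filterByExpr with a minimum count of 10, TMM, Benjamini-Hochberg over all genes tested, R 4.3.3), with 12 libraries per fit: the E14 course, each day, and 2 days for a change of effect. Levels are CPM over all 48 libraries, and r values use log2 CPM with a prior count of 2. Alternatives were other size factors and filters, DESeq2 1.42.0, other sample sets, a replicate block and leaving out each library. The tests were checked on simulated data.

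The genes and lists were chosen with earlier results of these data known. All 10 genes are named, and of each other list up to 4 called genes with the largest change, or up to 2 with the highest mean where none was called, plus genes named as chosen after their values were seen. Deviations from group means were correlated between libraries. In the same day, pairs of the same number had a median r of 0.0961 (from -0.563 to 0.634, 36 of 72 pairs over 0.1). Pairs of different numbers had a median of -0.0387 (38 of 144 over 0.1). In the same line, 28 of 72 pairs of the same number and 9 of 144 others were over 0.1. Libraries of the same number were thus alike more often. The labels do not say that a number marks a shared experiment, so the main fits used no block and a block is an alternative.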

Additional observations from a re-analysis of the deposited data

Results flagged for a closer look

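Tbx1 in the double knockout stood on opposite sides of E14 at days 2 and 6. At day 2 all 3 double knockout libraries were above all 3 of E14, with a mean of 0.124 CPM beside 0.0160 CPM, and 18 counts beside 2. At day 6 all 3 were below those of E14, with a mean of 0.947 CPM beside 2.65 CPM. In the single knockouts the mean was also above E14 at day 2 (0.129 CPM in the KAT6A and 0.194 CPM in the KAT6B knockout) and below it at day 6 (1.14 and 1.56 CPM), but the KAT6A libraries overlapped with E14 at day 2 and the KAT6B libraries at day 6. The differences between these days were not tested.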

How the results depend on the processing

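Of the 23 calls among the 10 genes, 17 held in every alternative that gave them a p and in every fit that left out 1 library. With only the 2 groups compared, Tbx1 at days 2 and 15 against day 0 had too few counts for a test, and the 6 others are named with their ranges in the report or here. Nkx2-5 at day 6 against day 0 in E14 (-1.83 ± 0.60, adjusted p = 0.0212) was lost without day 0 replicate 3 (0.134), day 6 replicate 1 (0.0817) or day 6 replicate 3 (0.0591), and Tbx20 at day 15 against day 6 also with no filter (0.0855) and with only the 2 groups (0.0588). The number of genes of the set called moved as follows. For E14 at day 2 against day 0 it was 2, 1 with only the 2 groups compared, and 0 to 2 when 1 library was left out. For the double knockout at day 2 it was 1, 2 with no filter on low counts, with DESeq2 and with only the 2 groups, 0 with all 48 libraries in 1 fit, and 0 to 1 when 1 library was left out. DESeq2 called 1 in the double knockout at day 0, 2 at day 6 and 1 in the KAT6B knockout at day 15. It called 1 for the change of the KAT6A knockout effect between days 6 and 15. Over all genes DESeq2 called 1086, 243, 1716 and 72 in these comparisons, in the same order, and edgeR called 0 of the set in each. With all 48 libraries in 1 fit, 3 were called in each of the 3 knockout lines at day 15, in place of 0. The share of all genes called in that fit is not set beside this count, so nothing is read from it. The same fit called 1 for the change of the double knockout effect between days 0 and 15, in place of 0. For that change between days 6 and 15, 1 was called with no filter, with DESeq2 and with all 48 libraries. With the replicate block 1 gene was called in the double knockout at day 0, Tbx20 (adjusted p = 0.0428), in place of 0, and the block moved no other number of calls in the set by over 1.5 times. Over all genes the block moved the calls from 643 to 0 in the double knockout and from 15 to 0 in the KAT6B knockout at day 15, from 395 to 605 in the double and from 2 to 26 in the KAT6B knockout at day 0, and from 14 to 39 in the double knockout at day 6. Of the calls in other lists that the report names, those of Nebl (adjusted p = 0.064), Tbx18 (0.0604) and Tbx15 (0.0797) in the double knockout at day 15 and Cdh5 at day 2 (0.0532) were lost with the block. Tbx5 in the KAT6A knockout at day 15 was at -1.66 on the log2 scale, at 1.52 without E14 replicate 3 and from -2.24 to 1.52 over all fits that left out 1 library, uncalled throughout, and the cause was not tested. Among all uncalled differences of the set, 89 of 2284 values under an alternative changed sign, with wide ranges for Tbx5 at day 6 in the double (-0.38 to 4.53) and KAT6A knockouts (-0.85 to 4.27) and for Hand2 in E14 at day 2 against day 0 (-3.92 to 1.61). The 9 of 30 most-like genes that also ranked in the first 3 over the 16 group means leave 21 that did not. Depth limits Tbx1 and Tbx5 outside day 6 and Hand2 at days 0 and 2, where most groups hold few counts. In simulations, genes changed 2-fold and 4-fold were called in 53% and 95% for the KAT6A knockout against E14 at day 6. The shares were 51% and 85% for E14 at day 6 against day 0, and 20% and 62% for double against KAT6A knockout at day 15. For the change of the double knockout effect between days 0 and 15 they were 14% and 69%. The changed genes, 100 at each fold, all had a mean over 1 CPM, and libraries were drawn with no effect of replicate number. The shares therefore do not cover genes of the set near or under 1 CPM. With so many genes changed, the adjusted p is easier to pass than where few genes change.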
